A study of Ovis aries with 7 samples.

Results

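ARNT2, ISL1 and NR5A1 are 3 transcription factor genes of the hypothalamus, and their mRNA was measured in late-gestation sheep fetuses after a short period of maternal hypoxia. Every non-control probe that the array files name as one of these genes was taken, which gave 5 of 15008 distinct probes for 3 of 966 named genes. There were 2 for ARNT2, 2 for ISL1 and 1 for NR5A1, each printed as 1 spot. In 3 hypoxia fetuses the ewe breathed gas of low PO2 for 30 min and both then recovered at normoxia for 30 min. In 4 age-matched control fetuses normoxia was kept for 30 min and for another 30 min after that. All 7 fetuses were chronically catheterized, and the hypothalamus was taken 60 min after the onset of the first period. Each fetus gave total RNA for 1 Cy3-labelled Agilent sheep array, so the replicates are animals. The age in days, sex and breed are not given in the sources used here.

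ARNT2 is a transcription factor of the bHLH-PAS family, whose members bind DNA as pairs. It is the neuronal relative of ARNT and pairs with SIM1 and with the alpha subunits of the hypoxia-inducible factors (HIF). In mice it is needed, with SIM1, for the oxytocin, vasopressin, corticotropin-releasing hormone, thyrotropin-releasing hormone and somatostatin neurons of the anterior hypothalamus. ISL1 is a LIM-homeodomain factor. In mice it acts in the arcuate nucleus, the region of the feeding and growth hormone control neurons, and binds a neuronal enhancer of the POMC gene. NR5A1, also called steroidogenic factor 1, is an orphan nuclear receptor. In mice it shapes the ventromedial nucleus of the hypothalamus, and it also acts in pituitary gonadotropes, the adrenal cortex and the gonads.

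The 5 probe sequences are shown because they decide what was measured and because 4 of them are near-copies of each other. Capitals mark the bases that the other probe of the same gene lacks.
ARNT2 A_70_P014642: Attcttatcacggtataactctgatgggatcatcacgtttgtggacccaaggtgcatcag
ARNT2 A_70_P014641: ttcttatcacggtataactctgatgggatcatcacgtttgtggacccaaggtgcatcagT
ISL1 A_70_P049672: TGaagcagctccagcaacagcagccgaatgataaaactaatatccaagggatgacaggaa
ISL1 A_70_P049671: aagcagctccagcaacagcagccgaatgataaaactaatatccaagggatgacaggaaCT
NR5A1 A_70_P017186: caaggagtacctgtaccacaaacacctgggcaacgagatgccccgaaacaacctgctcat

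Each probe is 60 bases long. The ARNT2 probes start at bases 270 and 271 of their source mRNA as the files give it, so they are shifted by 1 base and share 59. The ISL1 probes start at bases 601 and 603, are shifted by 2 bases and share 58. The NR5A1 probe starts at base 1273 and has no second probe beside it. The pairs therefore repeat the measurement of 1 stretch of RNA on each array and are not independent measures of their gene. The ARNT2 and ISL1 probes have a GC content of 45.0% and the NR5A1 probe one of 53.3%, against a median of 43.3% and quartiles of 38.3% and 45.0% over all probes of the array. Of the other probes, 0 shared a run of 20 bases with any of the 5. Genome coordinates of the probes were not used here.

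The 3 hypoxia arrays lay on slide 1, control replicates 1 and 2 on slide 2 and control replicates 3 and 4 on slide 3, so slide and group cannot be told apart. The share of spots well above background was 83.1% to 84.8% on the hypoxia arrays, against 77.2% and 80.8% on the slide 2 controls and 85.2% and 86.4% on the slide 3 controls. Pearson's r between any 2 arrays over the tested probes was 0.978 to 0.990. Of the hypothalamic peptide genes listed as tissue markers, 7 were tested and all 7 were well above background on every array. None of the listed neuron or oligodendrocyte markers had a named probe here. Levels below are log2 of the processed spot signal minus the 75th percentile of the same array, so a level of -1 is below that percentile by 1 doubling. Levels of different probes are not compared, since probes differ in how strongly they bind.

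For none of the 3 genes did the test find a difference between hypoxia and control. For all 5 probes the groups overlapped. Over all 12710 tested probes 16.1% had groups that did not overlap, so 0 of 5 is near that share. The 5 include near-copies and are not separate measures. In limma, 0 of the 5 passed an adjusted p of 0.05 and 0 of the 5 had an unadjusted p under 0.05. Over all tested probes, 0.0157% passed the adjusted threshold, which is 2 probes, and 15.7% had an unadjusted p under 0.05. The precision behind this differed widely between the genes. NR5A1 was measured at the edge of detection, while the spread of ISL1 lay mainly between the 2 control slides. In bulk tissue, fewer cells of a type and less RNA per cell cannot be told apart.

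**Figure D1:**
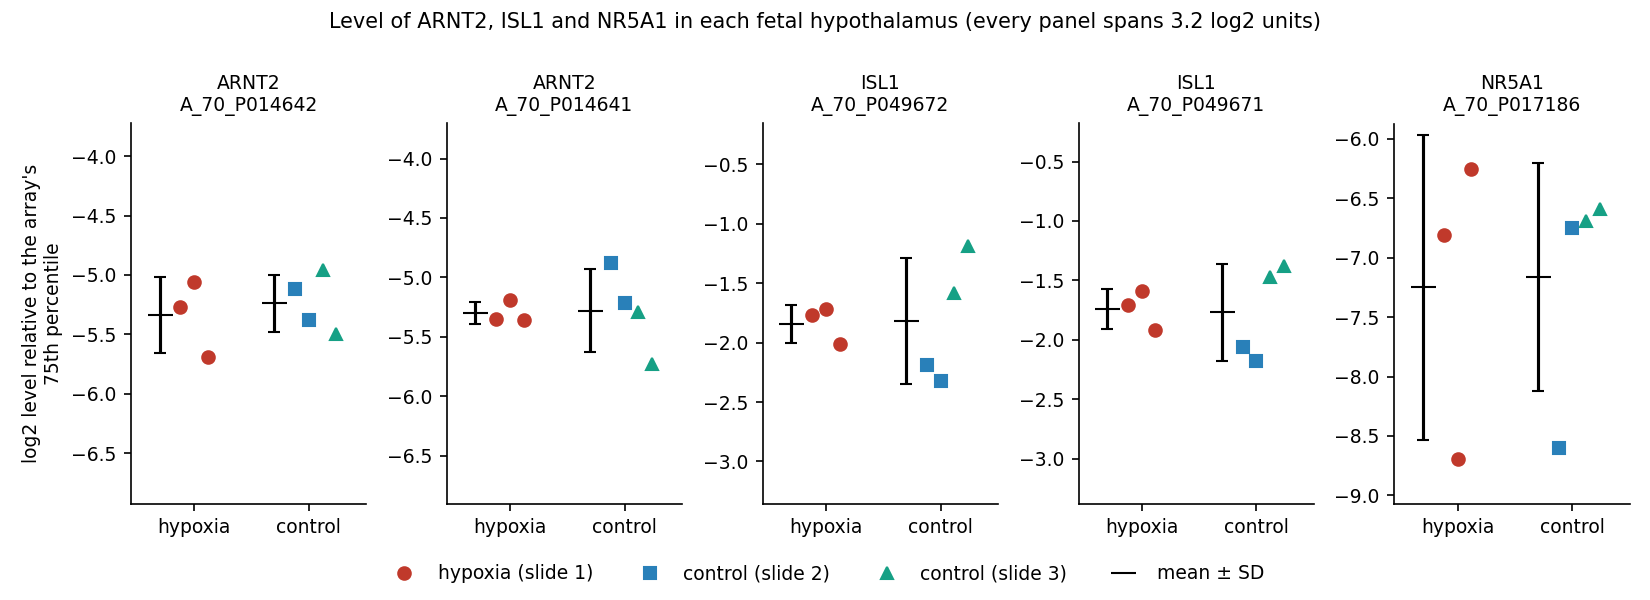
Levels of the 5 probes on each array (log2 relative to the 75th percentile of the array), hypoxia left and control right, with the mean and SD of each group as bars. Every panel spans the same range, and points of both groups overlap in all 5. For both ISL1 probes the hypoxia points lie between the slide 2 controls and the slide 3 controls.

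ARNT2 was dim but detected on every array. Its probe with the higher mean level, A_70_P014642, had levels of -5.27, -5.06 and -5.69 on the hypoxia arrays, against -5.12, -5.38, -4.96 and -5.50 on the control arrays. The lowest of the 7 was hypoxia replicate 3 and the highest control replicate 3, and the other values of the groups interleave. The mean level was -5.34 ± 0.32 in hypoxia (SD, n = 3) and -5.24 ± 0.24 in control (SD, n = 4). The log2 difference was -0.10 (SE 0.19, 95% interval -0.55 to 0.35, adjusted p = 0.825 in limma), a fold of 0.932 with an interval of 0.684 to 1.27. An exact two-sided permutation test over the 35 splits of the arrays gave p = 0.629.

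The second ARNT2 probe, A_70_P014641, had levels of -5.35, -5.19 and -5.36 in hypoxia, against -4.88, -5.22, -5.29 and -5.73 in control. Here the hypoxia values lie inside the control range, which runs from control replicate 4 at the bottom to control replicate 1 at the top. The mean level was -5.30 ± 0.09 in hypoxia (SD, n = 3) and -5.28 ± 0.35 in control (SD, n = 4), and the log2 difference was -0.02 (SE 0.19, adjusted p = 0.972 in limma). The slide 3 controls averaged -5.51 and the slide 2 controls -5.05 with this probe, a log2 difference of -0.46, and the contrast was -0.25 (SE 0.16) against slide 2 alone and 0.21 (SE 0.17) against slide 3 alone. With A_70_P014642 the slide difference was 0.02.

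The 2 ARNT2 probes differ by 1 base at each end, so they serve as repeat measures of each fetus. They differed by 0.08 to 0.33 on the log2 scale on the same array, most on control replicate 3. The SD of that difference over the 7 arrays was 0.25, about as large as the SD between fetuses of the mean of both probes, which was 0.20 in hypoxia and 0.27 in control. Across the 7 arrays r between the probes was 0.53. The spots had processed signals of 44.7 to 93.2 and a mean signal 2.01 to 2.91 times the local background, with an error of 10.5% to 12.9% of the signal assigned by the scanner software. An SD of a difference and an SD of a mean are unlike measures, so they do not give the share of probe disagreement in the spread of ARNT2. Within each slide both ARNT2 probes ranked the arrays in the same order, one that 3.45% of the tested probes had.

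ISL1 was well above background on every array. Probe A_70_P049671, the one with the higher mean, had levels of -1.71, -1.59 and -1.92 in hypoxia, against -2.06, -2.18, -1.47 and -1.38 in control. Probe A_70_P049672 had levels of -1.77, -1.72 and -2.01 in hypoxia, against -2.19, -2.32, -1.58 and -1.19 in control. With both probes the 3 hypoxia arrays fell in a narrow band inside the control range, with the slide 2 controls below it and the slide 3 controls above it.

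For A_70_P049671 the mean level was -1.74 ± 0.17 in hypoxia (SD, n = 3) and -1.77 ± 0.41 in control (SD, n = 4). The log2 difference was 0.03 (SE 0.22, 95% interval -0.49 to 0.55, adjusted p = 0.965 in limma), a fold of 1.02 with an interval of 0.710 to 1.46. The exact two-sided permutation test gave p = 0.914. The second probe averaged -1.84 ± 0.16 in hypoxia (SD, n = 3) and -1.82 ± 0.53 in control (SD, n = 4). Its difference was -0.02 (SE 0.28, adjusted p = 0.984 in limma), so the probes gave opposite signs around 0.

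Unlike for ARNT2, the 2 ISL1 probes followed each other closely. They differed by 0.06 to 0.19 on the same array, and r between them was 0.97 across the 7 arrays. The SD of their difference was 0.12, against an SD between fetuses of the mean of both probes of 0.16 in hypoxia and 0.46 in control. Processed signals ran from 406.4 to 1052.0, the mean signal was 7.89 to 18.82 times the local background, and the assigned error was 10.0% of the signal on all arrays but control replicate 1, where it was only slightly larger. The spread among the controls was therefore larger than the disagreement between the probes.

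That spread followed the slides, for ISL1 with both probes. The slide 3 controls averaged -1.42 and the slide 2 controls -2.12 with A_70_P049671, a log2 difference of 0.70 or 1.62-fold. With A_70_P049672 they averaged -1.39 and -2.25, a difference of 0.87 or 1.82-fold. The slide difference of A_70_P049671 was larger in size than that of 92.2% of the tested probes, whose median size was 0.18. The order of slide 2 below all hypoxia arrays and slide 3 above them was shared by 90 of the 12710 tested probes, or 0.708%, and the reverse order by 62, or 0.488%. This order was singled out after the ISL1 values were seen.

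The contrast of ISL1 with hypoxia therefore turned with the controls used. Against control replicates 1 and 2 alone, A_70_P049671 showed a log2 difference of 0.38 (SE 0.15, adjusted p = 0.289 in limma) and A_70_P049672 one of 0.42 (SE 0.15, adjusted p = 0.251). Against control replicates 3 and 4 alone, A_70_P049671 showed a difference of -0.32 (SE 0.14, adjusted p = 0.425), and A_70_P049672 one of -0.45 (SE 0.17, adjusted p = 0.387). None of these 4 contrasts passed the adjusted threshold. Each control slide holds 2 fetuses, so a slide and its fetuses cannot be told apart.

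**Figure D2:**
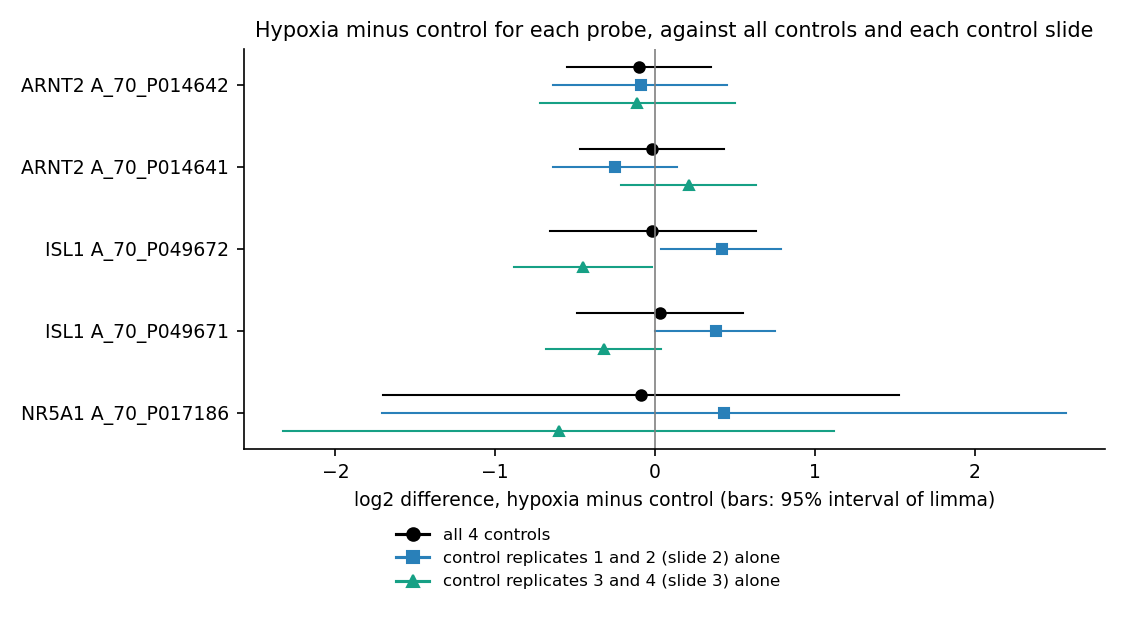
Log2 difference of hypoxia minus control for each probe (horizontal axis), against all 4 controls and against the controls of each slide alone, with the 95% interval of limma as bars. The ISL1 probes lie at 0.38 and 0.42 against slide 2 and at -0.32 and -0.45 against slide 3, and NR5A1 has the widest bars.

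NR5A1 was close to background on all 7 arrays and passed the filter of 3 arrays well above background with 4. These 4 were hypoxia replicates 1 and 3, which are 2 of the 3 hypoxia arrays, and control replicates 3 and 4, which are 2 of the 4 control arrays. Its processed signals were 23.2, 5.3 and 31.0 in hypoxia, against 5.3, 18.8, 28.1 and 24.6 in control. Hypoxia replicate 2 and control replicate 1 thus stood far below the other 5 arrays. On control replicate 1 the scanner software had put a surrogate in place of a signal that was not above background.

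On the log2 scale the NR5A1 levels were -6.81, -8.69 and -6.25 in hypoxia, against -8.60, -6.75, -6.69 and -6.59 in control. Each group holds 1 low array, and the other 5 arrays lie close together. The mean was -7.25 ± 1.28 in hypoxia (SD, n = 3) and -7.16 ± 0.96 in control (SD, n = 4). The log2 difference was -0.09 (SE 0.69, 95% interval -1.70 to 1.53, adjusted p = 0.965 in limma), and the exact two-sided permutation test gave p = 0.829. The corresponding fold was 0.941 with an interval of 0.307 to 2.88. Without hypoxia replicate 2 the difference was 0.63, and without control replicate 1 it was -0.57. The slide 3 controls averaged -6.64 and the slide 2 controls -7.68, a log2 difference of 1.03 that was larger in size than that of 96.3% of tested probes. This slide difference rests on control replicate 1, at -8.60, since control replicate 2, at -6.75, lay close to the slide 3 controls. The contrast was 0.43 (SE 0.86) against slide 2 alone and -0.60 (SE 0.70) against slide 3 alone.

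The mean NR5A1 signal was 1.30 to 1.83 times the local background, and the assigned error ran from 14.7% to 98.2% of the processed signal. Its residual SD was larger than that of 98.4% of tested probes, against 76.5% for ISL1 probe A_70_P049671, with an SD of 0.33, and 67.9% for ARNT2 probe A_70_P014642, with an SD of 0.28. A difference in NR5A1 within its interval was not detectable on these arrays.

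Across the 7 arrays the 3 genes did not follow one another closely. Pearson's r was 0.22 between ARNT2 and ISL1 (Spearman's rho 0.21), -0.61 between ARNT2 and NR5A1 (rho -0.64) and 0.13 between ISL1 and NR5A1 (rho 0.21), each over 7 arrays that share slides and scaling. These are descriptions over few points.

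The named genes whose level over the 7 arrays was most like each factor were ranked by Pearson's r among 836 named genes. The highest r of so many genes over 7 arrays describes these arrays only. The nearest to ARNT2 was ANGPT2, which encodes the vessel-remodelling ligand angiopoietin 2, with an r of 0.95 and a rho of 0.93. ANGPT2 had levels of -2.41, -2.28 and -2.88 in hypoxia, against -2.11, -2.34, -1.94 and -2.62 in control. Like ARNT2 probe A_70_P014642, it was lowest on hypoxia replicate 3 and highest on control replicate 3. The second ARNT2 probe, whose r with the first was 0.53, was lowest on control replicate 4 and highest on control replicate 1. The ranking for ARNT2 was made with A_70_P014642 only. ACLY, the enzyme that makes cytosolic acetyl-CoA, followed with an r of 0.89, and the innate immune receptor gene TLR2 with one of 0.87. SQSTM1, which encodes an autophagy adaptor, and IRF2, an interferon-regulatory factor, had r of 0.80 and 0.79.

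The 5 genes most like ISL1 held 2 arcuate peptide genes. PSMB8, a subunit of the immunoproteasome, had an r of 0.96, and POMC, the precursor of melanocortins and ACTH, one of 0.93. SSTR1, a somatostatin receptor, had an r of 0.91, and GHR, the growth hormone receptor, and NPY, the feeding-promoting neuropeptide Y, had 0.88 each. All 5 had a higher mean on slide 3 than on slide 2 among the controls, by 0.27 for SSTR1 to 0.86 for POMC.

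The 5 genes most like NR5A1 were SST, which encodes somatostatin, at an r of 0.93, B2M, the light chain of class I MHC, at 0.92, and the genes GABPA, PON2 and PHF14 at 0.91 each. Their rank correlations were lower, from 0.46 for PHF14 to 0.82 for SST and GABPA. All 5 genes were lowest on hypoxia replicate 2 and control replicate 1, the low NR5A1 arrays. How far r rests on these arrays was not computed. SST had levels of 4.08, 3.42 and 4.11 in hypoxia, against 3.37, 4.11, 4.45 and 4.21 in control, lowest on the same 2 arrays.

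The arcuate genes were examined as a list, since ISL1 is known to act there, and 7 of 13 listed genes were tested. None of the 7 passed the adjusted threshold in limma, and 0 had an unadjusted p under 0.05, against 0.0157% and 15.7% of all tested probes. The log2 difference was above 0 for 4 and below 0 for 3, with a median of 0.08, against a median of 0.03 over all tested probes and 54.7% of them above 0. The differences of largest size were 0.94 for GHRH, the growth hormone-releasing hormone gene (SE 0.71), -0.55 for TAC3, which encodes neurokinin B (SE 0.41), and 0.47 for the leptin receptor gene LEPR (SE 0.53). Without control replicate 1, on which GHRH and LEPR were lowest, these were 0.28 for GHRH and -0.04 for LEPR. Without hypoxia replicate 2 the TAC3 difference was -0.04, and without hypoxia replicate 1 it was -0.93. The list's median was 0.51 against slide 2 alone and -0.28 against slide 3 alone.

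Like ISL1, most of these genes were higher on slide 3 than on slide 2. POMC had levels of 1.37, 1.52 and 1.04 in hypoxia, against 0.90 and 0.71 on the slide 2 controls and 1.34 and 1.99 on the slide 3 controls. NPY had levels of 1.45, 1.86 and 1.03 in hypoxia, against 1.51 and 0.84 on slide 2 and 1.85 and 2.13 on slide 3. AGRP, which encodes an antagonist of melanocortin receptors, had levels of -0.38, -0.46 and -1.39 in hypoxia, against -1.19 and -1.90 on slide 2 and -0.56 and -0.53 on slide 3. In POMC, SST, GHRH, NPY and AGRP, 5 of the 7, both slide 3 controls stood above both slide 2 controls, an order that 20.2% of all tested probes had. The 7 genes had a median slide difference of 0.82.

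Part of the likeness also lay within slides. With both ISL1 probes, hypoxia replicate 2 was highest and replicate 3 lowest in hypoxia, control replicate 1 was above 2, and control replicate 4 above 3. Of all tested probes 4.44% had this order. Among the 7 arcuate genes POMC and NPY had it, with both of their probes. The order was read from the ISL1 values, and POMC and NPY already ranked among the genes most like ISL1 on these arrays, so this is a description only. Over all 7 arrays r with ISL1 was 0.87 for AGRP, 0.64 for GHRH, 0.33 for SST, 0.30 for LEPR and -0.48 for TAC3.

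**Figure D3:**
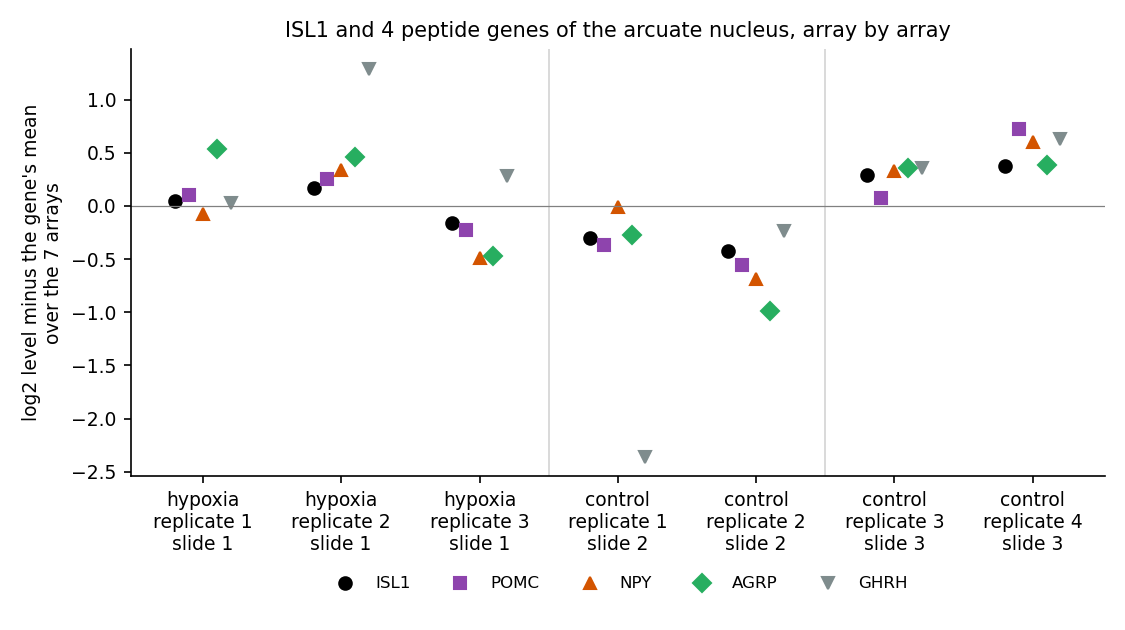
Level of ISL1 and of 4 arcuate peptide genes on each array, as log2 minus the mean of the gene over the 7 arrays, with hypoxia left of the 2 control slides. All 5 genes stand higher on the slide 3 controls than on the slide 2 controls, and GHRH has its lowest point on control replicate 1.

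Some markers of other tissue also differed between the control slides. The mean level of 6 tested pituitary markers, relative to the mean of each gene, ran from -0.90 to 0.53 in hypoxia, against -1.52 to -0.07 on the slide 2 controls and 0.60 to 0.92 on the slide 3 controls. In 3 of these 6 markers both slide 3 controls stood above both slide 2 controls, namely LHB, GHRHR and POMC, the last of which is already counted among the arcuate genes. CGA, PRL and TSHB did not have this order. The order was present in 5 of 8 meningeal and fibroblast markers. The mean of these 8 ran from -0.75 to 0.01 in hypoxia, against -0.34 to 0.32 on slide 2 and 0.46 to 0.56 on slide 3. It was present in 0 of 7 astrocyte markers, against 20.2% of all tested probes. GH, FSHB, GNRHR and POU1F1, further pituitary markers, were well above background on fewer than 3 arrays. ISL1 and POMC are also pituitary genes, and the part of pituitary tissue in their slide difference was not tested.

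For ARNT2, the partner genes were examined. Of 29 genes of the bHLH-PAS family and its partners, 12 were tested including ARNT2. In limma 0 of them passed at an adjusted p of 0.05 and 0 at an unadjusted p of 0.05, against 0.0157% and 15.7% of all tested probes. The difference was above 0 for 8 and below 0 for 4, with a median of 0.16. Over all tested probes 54.7% were above 0 and the median was 0.03. The list's median ran from 0.03 to 0.22 over the alternatives and was 0.04 without control replicate 1. ARNT had levels of -5.77, -5.66 and -5.97 in hypoxia, against -8.53, -5.46, -5.63 and -6.68 in control. The clock gene PER1 had levels of -6.76, -6.16 and -6.48 in hypoxia, against -8.73, -6.57, -6.85 and -6.92 in control. Control replicate 1, the array with the fewest spots above background, was lowest for both. Their log2 differences were 0.78 (SE 0.69) and 0.80 (SE 0.50), and without that array they were 0.12 for ARNT and 0.31 for PER1. PER2, another clock gene, had a difference of 0.37 (SE 0.21).

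The alpha subunits that pair with ARNT and ARNT2 varied less. HIF1A had a difference of 0.17 (SE 0.18), EPAS1, also called HIF-2 alpha, one of -0.18 (SE 0.16) and HIF3A one of -0.10 (SE 0.22). Without control replicate 1 the HIF1A difference was 0.04, without hypoxia replicate 1 that of EPAS1 was -0.08, and without control replicate 2 that of HIF3A was 0.06. The 3 other tested EPAS1 probes gave -0.06 to 0.85, so its probes disagreed in sign. Of 10 listed genes of HIF regulation 5 were tested, with 3 differences above 0, 2 below 0 and a median of 0.17 that ran from 0.03 to 0.30 over the alternatives and was 0.04 without control replicate 1. None passed the adjusted threshold in limma, and 1 of the 5 had an unadjusted p under 0.05, against 15.7% of all tested probes. This was CITED2, which competes with HIF alpha subunits for shared coactivators, and its groups did not overlap. Its levels were -2.47, -2.35 and -2.42 in hypoxia, against -2.84, -2.79, -2.74 and -2.91 in control. The log2 difference was 0.41 (SE 0.09, adjusted p = 0.162 in limma), which missed the adjusted threshold, and its second probe gave 0.40. Leaving out 1 array at a time moved it between 0.37 and 0.43. Of all tested probes 8.75% had groups that did not overlap with hypoxia higher.

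Of the neuropeptide genes that depend on SIM1 and ARNT2 in mice, SST and the oxytocin gene OXT were tested, 2 of 8 listed. SST had a difference of -0.17 (SE 0.29), or 0.06 without hypoxia replicate 2. OXT had levels of 2.44, 1.53 and 1.01 in hypoxia, against 1.84, 2.57, 1.88 and -1.12 in control, with a difference of 0.36 (SE 0.85). Control replicate 4 was far below the other OXT values, and without it the difference was -0.44. It was -0.03 without hypoxia replicate 1.

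For NR5A1, genes of the ventromedial nucleus and steroidogenic genes were examined. In the ventromedial list 6 of 20 genes were tested, NR5A1 included. In limma 0 passed the adjusted or the unadjusted threshold, against 0.0157% and 15.7% of all tested probes. Of these 1 had a difference above 0 and 5 below, with a median of -0.07. That median ran from -0.19 to 0.11 over the alternatives, so it had no stable sign. The differences of largest size were 0.47 for LEPR and -0.18 for ADCYAP1, which encodes the neuropeptide PACAP (SE 0.21). Without control replicate 4 the ADCYAP1 difference was 0.02, and without control replicate 1 that of LEPR was -0.04.

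Of 20 listed steroidogenic and gonadal genes 9 were on the array and 7 were tested. None passed the adjusted or the unadjusted threshold in limma, against 0.0157% and 15.7% of all tested probes. The difference was above 0 for 6 and below 0 for 1, against 54.7% of all tested probes above 0. The list's median was 0.23 and ran from 0.06 to 0.36 over the alternatives. INSL3, counted above 0 at 0.27, gave -0.23 to 0.68 with its other probes. CYP11A1, the side-chain cleavage enzyme that begins steroid synthesis, had a difference of 0.77 (SE 0.81) and was well above background on 3 arrays. Without control replicate 3 it was 0.22, and without control replicate 1 it was 1.34. INHA, the inhibin alpha subunit, had -0.38 (SE 0.22) and CYP17A1, which leads to androgens and cortisol, 0.29 (SE 0.13).

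ISL1 and NR5A1 also act in pituitary gonadotropes, so a list of gonadotrope and other pituitary genes was examined. Of its tested genes, PRL and TSHB are not gonadotrope genes, and NEUROD1 is not particular to gonadotropes. Of 15 listed genes 11 were on the array and 6 were tested, with 4 above 0, 2 below 0 and a median of 0.33. The median was -0.47 against slide 3 alone and -0.43 without control replicate 2. None passed the adjusted threshold, and 2 of the 6 genes had an unadjusted p under 0.05, against 15.7% of all tested probes. These were NEUROD1 and the luteinizing hormone gene LHB, which is named after its values were seen. LHB had a difference of 0.39 (SE 0.13, adjusted p = 0.250 in limma). Its groups did not overlap, with hypoxia higher, as for 8.75% of all tested probes. PRL, the prolactin gene, had levels of -4.38, -5.14 and -4.11 in hypoxia, against -3.72, -3.46, -3.80 and 1.13 in control. All 3 hypoxia values of PRL lay below the controls, an order that 7.38% of all tested probes had. Control replicate 4 stood far above the rest. The difference was -2.08 (SE 1.18, adjusted p = 0.420 in limma), or -0.88 without that array. CGA, the shared alpha subunit of the glycoprotein hormones, had levels of 0.35, -4.63 and 0.28 in hypoxia, against -0.74, -6.47, 1.39 and -2.50 in control, a spread far wider than the group difference of 0.75 (SE 1.97). The thyrotropin gene TSHB had a difference of 0.76 (SE 1.40). With 1 array left out, CGA ran from -0.71 without control replicate 2 to 2.40 without hypoxia replicate 2, and TSHB from -0.20 without control replicate 2 to 1.77 without control replicate 3.

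Among other developmental factors, 3 of 35 listed genes were tested. NEUROD1, a bHLH factor of neuronal and endocrine differentiation, had levels of -3.28, -2.87 and -3.06 in hypoxia, against -2.27, -2.62, -2.55 and -2.43 in control. All 3 hypoxia values lay below the 4 control values, and the difference was -0.60 (SE 0.14, adjusted p = 0.160 in limma), short of the threshold. Leaving out 1 array at a time gave -0.70 to -0.50. NKX2-2, a homeodomain factor of the ventral neural tube, also had groups that did not overlap, with a difference of -0.19 (SE 0.11, adjusted p = 0.422), or -0.12 without hypoxia replicate 3. Of all tested probes 7.38% had groups that did not overlap with hypoxia lower. PAX6, a paired-box factor, had a difference of 0.16 (SE 0.23), or -0.02 without control replicate 4.

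Among the nuclear receptors, the family of NR5A1, 9 of 32 listed genes were tested, with 3 above 0, 6 below 0 and a median of -0.05 that ran from -0.17 to 0.15 with 1 array left out. None passed the adjusted or the unadjusted threshold in limma, against 0.0157% and 15.7% of all tested probes. ESR1 and PGR, both counted below 0, gave 0.23 and 0.65 with their second probes. ESR2, the estrogen receptor beta gene, had levels of -5.89, -5.46 and -4.95 in hypoxia, against -6.33, -5.47, -6.25 and -6.27 in control. Its difference was 0.65 (SE 0.28, adjusted p = 0.328). Without hypoxia replicate 3 the difference was 0.40. The groups overlapped through control replicate 2, which lay above hypoxia replicate 1 and level with hypoxia replicate 2. The glucocorticoid receptor gene NR3C1 and PPARG, a receptor of lipid metabolism, each had -0.22, with an SE of 0.27 for NR3C1 and 0.14 for PPARG. Without control replicate 1 the NR3C1 difference was -0.02, and without control replicate 4 that of PPARG was -0.12. Of the LIM-homeodomain factors and their cofactors, ISL1 was the 1 tested of 18 listed.

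**Figure D4:**
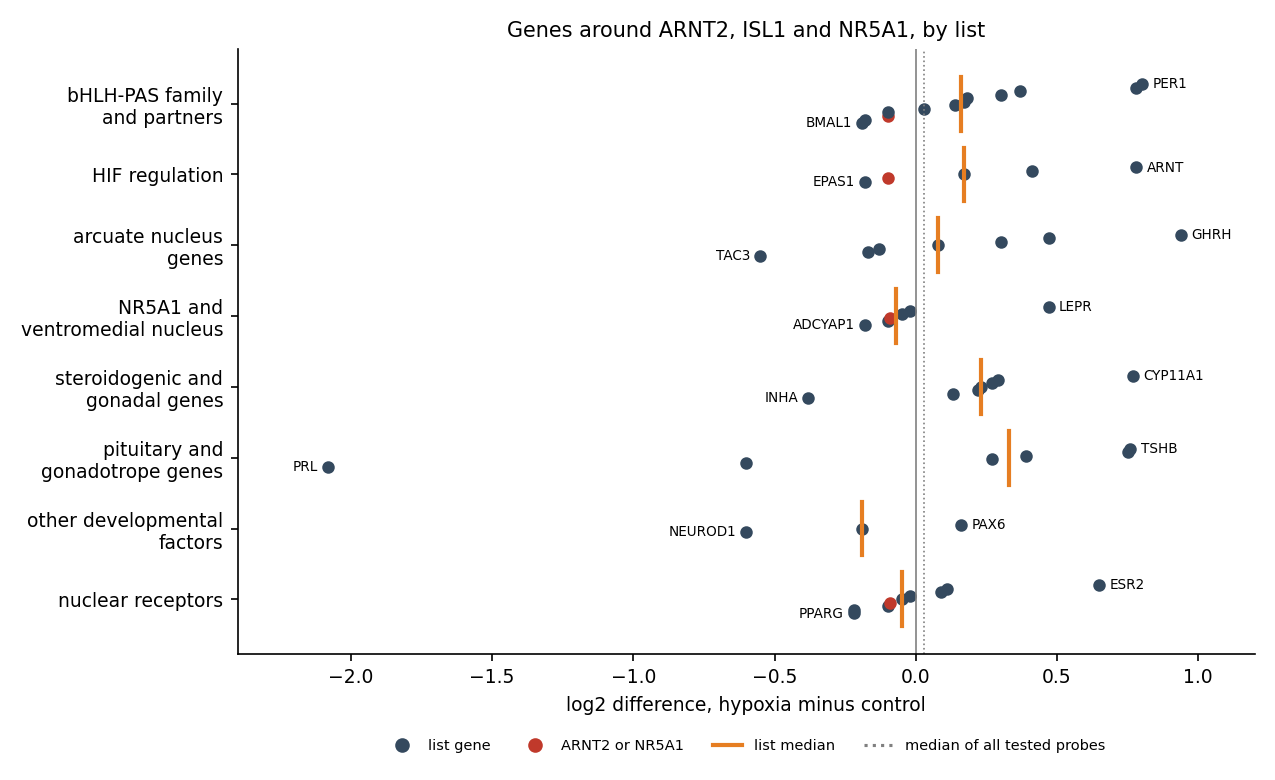
Log2 difference of hypoxia minus control (horizontal axis) for each tested gene of 8 lists around the 3 factors, with ARNT2 and NR5A1 in red, the list median as an orange bar and the median of all tested probes, 0.03, as a dotted line. None of the genes shown passed the adjusted threshold, and they range from PRL at -2.08 to GHRH at 0.94.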

How the data were processed

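Hypothalamic RNA of 3 hypoxia and 4 control fetuses was hybridised to 1-colour Agilent sheep arrays, grouped by sample title. Per the file headers, spot intensity values came from Feature Extraction 10.1.1.1, which subtracted background and put a surrogate where a signal was not above it. Values of the deposited table equal the log2 of that processed intensity within 5e-09, unscaled and uncentred (column medians 8.69, 8.48 and 8.62 in hypoxia, against 8.31, 8.34, 8.87 and 8.60 in control), and served as an alternative. No source used here gives the authors' own test.

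The processed signal was log2-transformed after scaling to the 75th percentile of the non-control spots of each array. Outlier spots were left out, saturated spots kept and spots of 1 probe averaged. The tested probes were the 12710 of 15008 that stood well above background on 3 or more of the 7 arrays. The test was limma 3.58.1 under R 4.3.3, using lmFit and eBayes, two-sided, with Benjamini-Hochberg adjustment at 0.05. Single probes also had an exact permutation test. Tables and figures were made in Python 3.11.15 with numpy 2.4.6, pandas 2.3.3, scipy 1.17.1 and matplotlib 3.10.9. The fit was tested on simulated data.

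Of the probes, 1575 were named (966 genes), 703 through accessions and 124 through gene IDs of the ARS-UI_Ramb_v3.0 table, the others through symbols, synonyms or descriptions, and 13433 stayed unnamed. A gene's value is that of its probe with the highest mean level. The members, lists and marker genes were chosen with earlier results of these data known. Named by rule were all probes of the 3 factors, the 5 genes most like each, and in each list the 3 genes with the largest absolute difference, or all genes of lists of up to 3. AGRP, HIF1A and HIF3A were added for their roles, and the values of 1 listed gene are not reported here. Precision is limited by the number of arrays.

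The alternatives changed the scaling, the background correction, the filter on dim probes, the prior, the array weights, the averaging of spots or the probe of a gene, used the deposited log2 table, added a block for slide or replicate number, or left out an array or a control slide.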

Additional observations from a re-analysis of the deposited data

Results flagged for a closer look

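The NR5A1 level on control replicate 1, at -8.60, stood apart from the other 3 controls, which lay between -6.75 and -6.59. Its gap to the nearest control was 0.921 of the control range, above Dixon's critical value for 4 values at the 95% level. This test was made for the 4 control values of each of the 5 probes, and chance gives such a result in about 1 in 20 groups. The spot was not above background and carries a surrogate signal, and the array had the lowest share of spots well above background, 77.2%.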

How the results depend on the processing

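No alternative took ARNT2, ISL1 or NR5A1 past the adjusted threshold. Adjusted p in limma ranged from 0.640 to 0.988 for ARNT2, 0.289 to 0.997 for ISL1 and 0.675 to 0.993 for NR5A1. The signs of these differences near 0 were not stable. The ARNT2 difference was 0.05 with normexp correction at the 75th percentile, and -0.24 to 0.07 with 1 array left out, above 0 only without hypoxia replicate 3. The ISL1 difference was -0.004 with median scaling, -0.32 against slide 3 alone, -0.05 with array weights, -0.02 with the other probe and -0.11 to 0.16 with 1 array left out, below 0 without hypoxia replicate 2 and without either slide 2 control. The NR5A1 difference was 0.06 with normexp correction at the 75th percentile, 0.43 against slide 2 alone and -0.59 to 0.63 with 1 array left out, above 0 without hypoxia replicate 2 or control replicates 2, 3 or 4. NR5A1 was not tested where a probe had to be well above background on all 7 arrays. Slide as a random block gave the same differences as no block. Each slide holds a single group and the control slides hold equal numbers of arrays, so this block could not move them. Its estimated correlation of -0.03 is a value over all tested probes and does not describe the slide difference of a single gene.

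The count of all probes past the threshold, 2, moved more. It was 0 with quantile normalization, with the 75th percentile taken over probes above background on every array and with no filter on dim probes. It was 10 with normexp at the 75th percentile, 35 with normexp and quantile normalization, 10 with the deposited log2 values, 25 with probes above background on all 7 arrays, 57 with a trended and robust prior and 4 with array weights. Against slide 2 alone it was 232 and against slide 3 alone 4, and with 1 array left out 0 to 6. The cause was not tested.

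Both groups use replicate numbers 1 to 3, without any label that pairs fetuses by them. Correlations of the deviations of same-numbered arrays were 0.12, 0.09 and 0.11, and each hypoxia array correlated best with the control of its own number, a hint from the data and not the design. With a replicate block the difference was -0.19 for ARNT2, 0.16 for ISL1 and 0.10 for NR5A1, and 0 probes passed.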

Other observations

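Astrocyte markers had a median log2 difference of 0.45, with 6 of 7 genes above 0, meningeal and fibroblast markers one of -0.59 with 8 of 8 below 0, and endothelial markers one of -0.29 with 4 of 5 below 0. None of these genes passed the adjusted threshold in limma, and 4 astrocyte, 3 meningeal and 1 endothelial gene had an unadjusted p under 0.05. Of these 4 astrocyte genes, GJA1, SLC1A2 and SLC4A4 were higher in hypoxia, while VIM was lower, at -0.49 (second probe -0.47). Over all tested probes, 15.7% had an unadjusted p under 0.05 and 54.7% a difference above 0. Over the 7 arrays the astrocyte list had a mean level, centred per gene, of 0.10 to 0.23 in hypoxia and -0.31 to 0.09 in control. ARNT2, ISL1 and NR5A1 had differences between -0.10 and 0.03 on the same arrays.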
